A study of Homo sapiens with 12 samples.

Results

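LK-2 is an established human lung squamous cell carcinoma (LUSC) line, and the comparison described here is that of LK-2 cells with forced expression of maspin (LK2-maspin) with their control cells (LK2-ctrl). It rests on 6 of the 12 libraries of the series, chosen by the cell line that the labels name, with 3 libraries in each group. LK2-ctrl cells carried a lentiviral vector for the green fluorescent protein ZsGreen, and LK2-maspin cells carried the same kind of vector for maspin with ZsGreen. Both were selected with blasticidin in RPMI1640 culture and each is a pool of surviving clones, so that differences between pools and effects of maspin cannot be told apart. The sources used here do not say whether the 3 libraries of a group came from separate cultures, and p-values therefore measure only the spread between these libraries, which may be technical. The other 6 libraries, from the LUSC line RERF-LC-AI, enter only the test of the difference between the lines. The question was which transcripts differ once maspin is restored in a line in which, per the study, the protein is found in the nucleus and the cytoplasm.

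Maspin, the product of SERPINB5, belongs to the clade B serpins, which lack a secretion signal and act mostly inside cells. It is made by myoepithelial, basal and squamous cells and is known as a tumour suppressor that is lost from many carcinomas. Squamous cells are recognised by the factors TP63 and SOX2 and by basal keratins such as KRT5 and KRT14, and they leave the basal layer by changing their keratins and building a cornified envelope.

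Total counts per library were 39802246 to 54941357, and 26270 of 38434 named genes had enough reads to be tested. Each value below is in CPM (counts scaled to a common library total, with TMM factors), given for replicates 1, 2 and 3 in turn. Each log2 fold change is LK2-maspin over LK2-ctrl with its standard error, and each adjusted p is from edgeR's quasi-likelihood test with Benjamini-Hochberg adjustment over all genes tested. In these bulk libraries, a change in RNA per cell and a change in the share of cells that make it cannot be told apart.

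At an adjusted p under 0.05, 140 genes were called, which is 0.533% of those tested. Of these, 98 were higher in LK2-maspin (0.373% of genes tested) and 42 were lower (0.16%). More than 2-fold changes were found for 47 of the higher and 8 of the lower genes, and the median log2 fold change was 0.92 for higher and -0.59 for lower genes, against -0.0010 over all genes tested. In all 140 genes the 3 libraries of one group lay above the 3 of the other, while 11.9% of all genes tested had such groups. None of the 8285 genes with a mean under 1 CPM was called, against 24 of 5951 at 1 to 5 CPM, 44 of 3892 at 5 to 20 CPM, 48 of 5856 at 20 to 100 CPM and 24 of 2286 above that. Protein-coding genes made up 125 of the called genes and long non-coding RNAs 13. Among protein-coding genes 0.747% were called, and among long non-coding RNAs 0.176%.

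**Figure D1:**
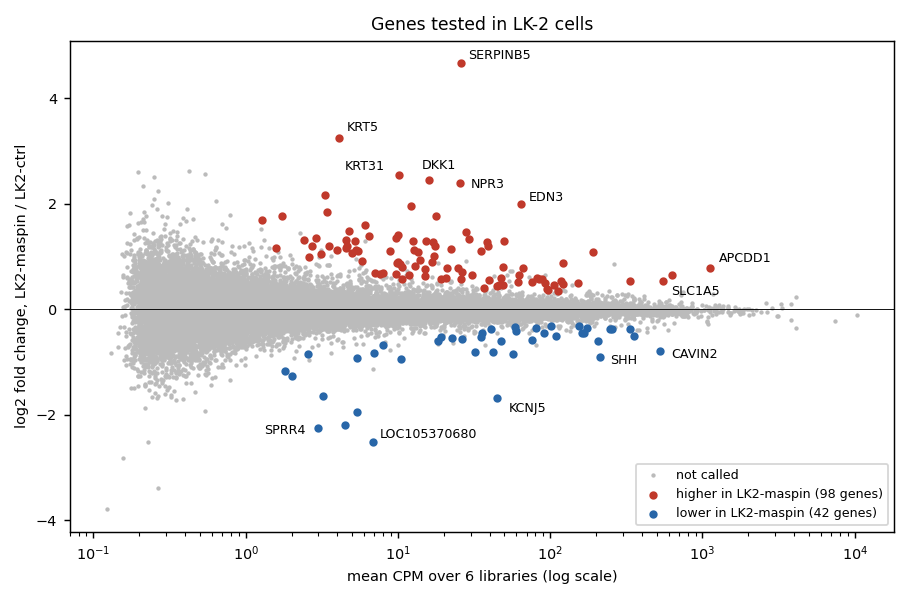
Log2 fold change of LK2-maspin over LK2-ctrl (vertical axis) against the mean CPM over the 6 libraries (horizontal axis, log scale) for the 26270 genes tested, with 98 genes called higher in red, 42 called lower in blue and the others in grey. SERPINB5 lies above all other called genes at 4.67, and the called genes all have a mean of at least 1 CPM.

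Calls depended on single libraries. Leaving out 1 library at a time, 43 genes (32 higher and 11 lower) were called in all 6 fits, and 62 were called in at most 3. Without LK2-ctrl replicate 2 the count was 50, and without LK2-maspin replicate 2 it was 52, while without LK2-ctrl replicate 3 it rose to 199. The genes described most fully below are among the 43, and for the others the libraries whose absence ended the call are named. Counts of called members of gene lists below stand against 0.533% of all genes tested and 4.82% of the tested genes of all 55 lists. All lists were chosen with earlier results of these data known.

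Maspin itself was the gene with the smallest p. SERPINB5 was at 2.02, 2.01 and 1.87 CPM in LK2-ctrl and 50.9, 50.7 and 48.4 CPM in LK2-maspin (log2 fold change 4.67 ± 0.09, adjusted p = 1.61e-10). The LK2-ctrl libraries held 84 to 109 reads of the gene and the LK2-maspin libraries 2001 to 2727, so that the gene was expressed at a low level in cells without the maspin vector. Reads of the endogenous gene and of the vector's coding sequence cannot be told apart. Among 10 other clade B serpins tested, 0 were called. SERPINB2, an inhibitor of plasminogen activation, was at 0.042, 0.185 and 0.133 CPM in LK2-ctrl and 0.261, 0.557 and 0.687 CPM in LK2-maspin (log2 fold change 2.01 ± 0.59, adjusted p = 0.332). SERPINB8 (0.33, adjusted p = 0.63), SERPINB12 (0.34, adjusted p = 0.915), SERPINB11 (0.26, adjusted p = 1), SERPINB10 (0.026, adjusted p = 1), SERPINB13 (-0.24, adjusted p = 1) and SERPINB7 (-0.42, adjusted p = 1), which lie near SERPINB5 on chromosome 18, also missed the threshold.

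The markers of the labelled cell type were unevenly present. SOX2, whose gain is common in LUSC, was at 563, 527 and 520.3 CPM in LK2-ctrl and 468, 401 and 414 CPM in LK2-maspin. TP63, the master factor of squamous cells, was at 0.777, 1.66 and 1.38 CPM in LK2-ctrl and 1.1, 1.65 and 0.665 CPM in LK2-maspin. KRT14 and KRT17, keratins of basal and activated squamous cells, were at most at 0.0738 CPM and 0.0444 CPM in any library. Of the squamous markers, SOX2, DSC3, PERP and ITGB4 were present, while TP63 was at 0.665 to 1.66 CPM and KRT14 and KRT17 were at or near 0 in both groups. The summed level of the 21 squamous and basal markers was 1435 to 1551 CPM in LK2-ctrl and 1258 to 1368 CPM in LK2-maspin. Most of this sum came from PERP (712 to 853 CPM over the libraries) and SOX2, so it says little about the other markers. Of the 19 tested, 10 had a log2 fold change above 0 and 9 below (median 0.045), and KRT5 was the 1 called.

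Markers of other lineages did not pass the test. The 14 neuroendocrine markers summed to 415 to 503 CPM in LK2-ctrl and 452 to 495 CPM in LK2-maspin, mostly from UCHL1, and INSM1 (-0.26, adjusted p = 0.411) and SCG3 (0.27, adjusted p = 0.48) were present at 18.3 to 33.9 CPM, while CHGA and SYP were at most at 0.472 CPM in any library. Adenocarcinoma and alveolar markers summed to 25.8 to 31.3 CPM, with NKX2-1 (-0.38, adjusted p = 0.419) and SLC34A2 (1.03, adjusted p = 0.723) nearest to a call. The 15 fibroblast and mesenchymal markers summed to 334 to 443 CPM, of which the neural cadherin CDH2 made up most. VIM, the intermediate filament of mesenchymal cells, was at most at 0.944 CPM in any library. LUM (1.45, adjusted p = 0.0583) and THY1 (0.60, adjusted p = 0.146) had the smallest p of this list. Blood and endothelial markers summed to 15.6 to 19.7 CPM, CD3D was at 0 in all 6 libraries, and CD14 (-1.23, adjusted p = 0.483) and PECAM1 (-0.30, adjusted p = 0.955) were nearest to a call.

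KRT5 and KRT31, both keratins, had the largest rises among called genes after that of SERPINB5. KRT5, the type II keratin of basal cells, was at 1.01, 0.665 and 0.667 CPM in LK2-ctrl and 5.62, 7.63 and 9.08 CPM in LK2-maspin (log2 fold change 3.25 ± 0.23, adjusted p = 4.65e-05). KRT31, a type I keratin of hair, was at 2.46, 2.97 and 3.51 CPM in LK2-ctrl and 14.5, 17.4 and 20.1 CPM in LK2-maspin (log2 fold change 2.54 ± 0.16, adjusted p = 2.04e-05). KRT23, a type I keratin induced in differentiating and some tumour epithelia, was at 14.8, 15.8 and 19.8 CPM in LK2-ctrl and 39.1, 38.7 and 48.2 CPM in LK2-maspin (log2 fold change 1.33 ± 0.12, adjusted p = 0.000274). No single library decided the call of any of these 3 genes. KRT32, another hair keratin, was at 1.34, 1.55 and 1.24 CPM in LK2-ctrl and 2.52, 3.22 and 4.59 CPM in LK2-maspin (log2 fold change 1.31 ± 0.23, adjusted p = 0.0265) and lost its call without LK2-ctrl replicate 1, 2 or 3 or LK2-maspin replicate 2 or 3 (adjusted p = 0.0502 to 0.128). In total 3 of 16 type I keratins tested rose (18.8%, median log2 fold change 0.39) and 1 of 13 type II keratins (7.69%, median 0.27), with none lower. The share was 0.533% over all genes tested and 4.82% over tested list genes. Keratins are close paralogs, and reads shared between them may have been split by the counting.

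The cornified envelope list was chosen with results of these data known. It left out SPRR4 and S100A7A, which were both called lower (log2 fold changes -2.26 and -1.95). Of its 24 tested genes, 2 were called higher (8.33%) and none lower (median log2 fold change 0.16). That none was lower holds only for the members chosen. DMKN, a secreted protein of the upper epidermis, was at 2.37, 1.96 and 1.76 CPM in LK2-ctrl and 4.35, 4.03 and 4.23 CPM in LK2-maspin (log2 fold change 1.05 ± 0.16, adjusted p = 0.0124), and SFN, the 14-3-3 sigma protein of epithelia, at 38.6, 40.5 and 37.7 CPM in LK2-ctrl and 49.6, 57.2 and 53.9 CPM in LK2-maspin (log2 fold change 0.46 ± 0.073, adjusted p = 0.0137). DMKN lost its call without LK2-ctrl replicate 2 or LK2-maspin replicate 2 or 3 (adjusted p = 0.0509 to 0.105), and SFN without LK2-ctrl replicate 2 or LK2-maspin replicate 2 or 3 (adjusted p = 0.0605 to 0.159). The terminal markers IVL, LORICRIN and FLG were not called.

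The 250 bases before the start of KRT31 and KRT5, the keratins with the largest rises, are shown in RefSeq sequence (GRCh38.p14, chr17:41397609-41397858 and chr12:52520395-52520644, both minus strand, written 5′ to 3′). Both genes rose, and their windows differ in whether they hold the exact string TATAAA. Capitals mark the TATA box motif TATAAA, searched on both strands.
KRT31: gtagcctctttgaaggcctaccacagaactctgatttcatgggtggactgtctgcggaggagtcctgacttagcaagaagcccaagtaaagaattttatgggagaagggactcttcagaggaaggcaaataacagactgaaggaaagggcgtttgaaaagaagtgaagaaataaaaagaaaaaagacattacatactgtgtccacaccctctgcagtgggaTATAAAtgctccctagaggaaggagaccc
KRT5: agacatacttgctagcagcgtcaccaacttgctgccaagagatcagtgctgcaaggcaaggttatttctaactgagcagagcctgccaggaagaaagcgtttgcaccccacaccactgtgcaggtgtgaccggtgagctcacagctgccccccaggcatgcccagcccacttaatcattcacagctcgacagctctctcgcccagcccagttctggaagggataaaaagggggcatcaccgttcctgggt
The KRT31 window held the exact string once, close to the start of the gene, and the KRT5 window did not hold it. Whether the KRT5 window holds another form of the TATA box was not tested. Of 18272 tested genes with a promoter window, 8.06% held TATAAA or its reverse, as did 12 of 99 called genes.

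**Figure D2:**
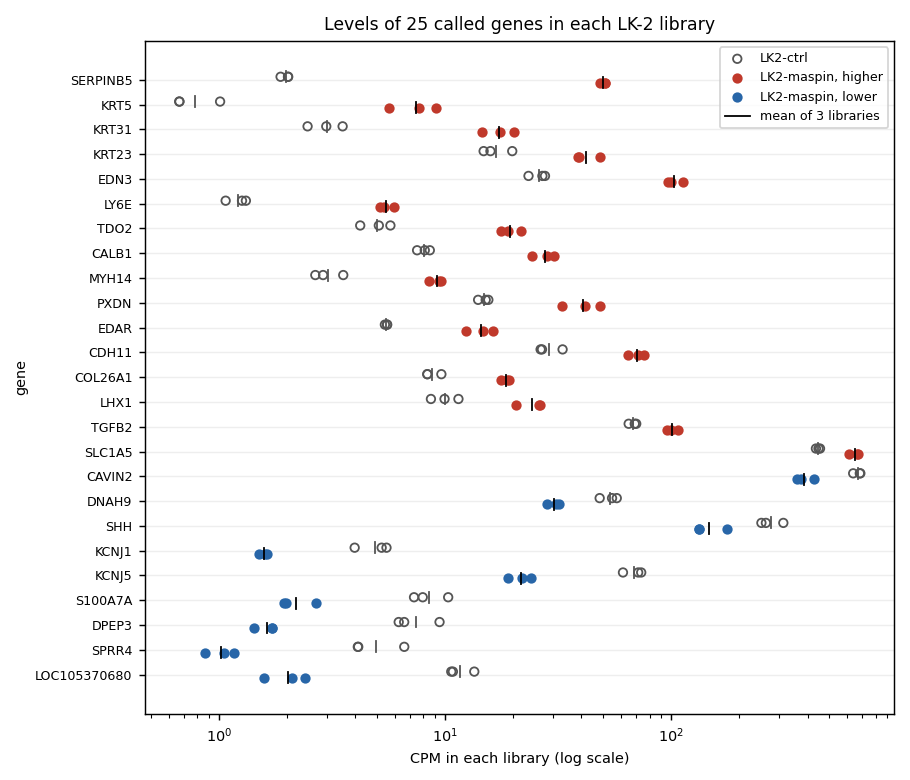
Levels of 25 called genes in each LK-2 library (horizontal axis, CPM on a log scale), with LK2-ctrl as open circles, LK2-maspin as filled circles and vertical lines at the mean of 3 libraries. The groups do not overlap for any of the 25 genes, as in all 140 called genes and 11.9% of all genes tested. The rises of SERPINB5, KRT5 and KRT31 are the widest apart.

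Among secreted signals, EDN3 rose, a ligand of the endothelin receptors that acts on melanocytes and neural crest. EDN3 was at 26.9, 23.3 and 27.6 CPM in LK2-ctrl and 96.3, 99.5 and 112 CPM in LK2-maspin (log2 fold change 1.99 ± 0.086, adjusted p = 7.45e-07), and it was the 1 called of 7 endothelin genes tested. NPR3, the clearance receptor of natriuretic peptides, was at 5.99, 8.05 and 10.4 CPM in LK2-ctrl and 22.8, 44.3 and 61.9 CPM in LK2-maspin (log2 fold change 2.40 ± 0.30, adjusted p = 0.00346). The NPR3 level differed between libraries of the same group, and its call was lost without LK2-ctrl replicate 2 (adjusted p = 0.0538).

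Some ligands and binding proteins of growth factor pathways rose, and SHH fell. TGFB2, a TGF-beta ligand, was at 64.7, 69.9 and 68.8 CPM in LK2-ctrl and 95.8, 107 and 99.9 CPM in LK2-maspin (log2 fold change 0.57 ± 0.066, adjusted p = 0.00172). IGFBP3, which binds insulin-like growth factors, was at 26.7, 22.4 and 22.6 CPM in LK2-ctrl and 42.3, 55.9 and 65.8 CPM in LK2-maspin (log2 fold change 1.19 ± 0.14, adjusted p = 0.00179), and IGF2BP1, which binds the IGF2 mRNA, at 34.1, 34.3 and 38.1 CPM in LK2-ctrl and 58.6, 64.6 and 63.4 CPM in LK2-maspin (log2 fold change 0.81 ± 0.072, adjusted p = 0.000267). SHH, the sonic hedgehog ligand, fell, being at 313, 250.0 and 262 CPM in LK2-ctrl and 175, 132 and 132 CPM in LK2-maspin (log2 fold change -0.91 ± 0.11, adjusted p = 0.00346). The calls of these 4 genes each held without any single library. The IGF axis list had 2 of 17 genes higher, the hedgehog list 1 of 17 lower, and the TGF-beta list 2 of 23 higher, the second being LEMD3, a nuclear envelope protein that restrains SMAD signalling. BMP4, a BMP ligand, rose (log2 fold change 0.52 ± 0.073, adjusted p = 0.00687) and was the 1 called of 29 genes of its list, but lost its call without LK2-ctrl replicate 2 or LK2-maspin replicate 2 (adjusted p = 0.0705 to 0.0854). TGFA, a ligand of EGFR, rose (log2 fold change 1.13 ± 0.20, adjusted p = 0.0307), and lost its call without LK2-ctrl replicate 1 or 2 or LK2-maspin replicate 2 or 3 (adjusted p = 0.0828 to 0.268), while EGFR itself was at 0.13, adjusted p = 1.

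In the WNT pathway, some antagonists and target genes rose and ligands and receptors were not called. DKK1, a secreted WNT inhibitor, was at 2.77, 4.41 and 7.74 CPM in LK2-ctrl and 9.49, 30.2 and 41.6 CPM in LK2-maspin (log2 fold change 2.45 ± 0.46, adjusted p = 0.0421). The 3 LK2-maspin libraries differed more than 4-fold among themselves, and the call was lost without LK2-ctrl replicate 1 or 2 or LK2-maspin replicate 2 or 3 (adjusted p = 0.105 to 0.339). WIF1, which binds WNT ligands, was at 11.1, 11.8 and 12.4 CPM in LK2-ctrl and 20, 19.7 and 25.8 CPM in LK2-maspin (log2 fold change 0.89 ± 0.12, adjusted p = 0.00382) and lost its call without LK2-ctrl replicate 2 (adjusted p = 0.0506). APCDD1, a membrane WNT inhibitor, had 676, 833 and 955 CPM in LK2-ctrl and 1164, 1513 and 1579 CPM in LK2-maspin (log2 fold change 0.79 ± 0.13, adjusted p = 0.0159), and lost its call without LK2-ctrl replicate 2 or LK2-maspin replicate 2 or 3 (adjusted p = 0.0563 to 0.134). SP5, a target of WNT signalling, rose (log2 fold change 0.52 ± 0.065, adjusted p = 0.00346) and lost its call without LK2-maspin replicate 2 (adjusted p = 0.0525). In all, 5 of 24 antagonists and targets rose (20.8%, against 0.533% of all genes tested and 4.82% of tested list genes). Like the others, this list was chosen with results of these data known. Of its 24 genes, 20 had a log2 fold change above 0 (median 0.11). Among 20 ligands (median 0.055) and 18 receptors (median -0.085), 0 were called. RSPO4 (0.82, adjusted p = 0.0631) and WNT6 (1.20, adjusted p = 0.614) among the ligands and FZD8 (-0.45, adjusted p = 0.0583) and FZD7 (-0.50, adjusted p = 0.417) among the receptors had the smallest p.

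Of 31 genes of the TNF receptor superfamily tested, 1 rose and 1 fell (median log2 fold change -0.0067). EDAR, the ectodysplasin receptor needed for hair and sweat glands, was at 5.52, 5.52 and 5.4 CPM in LK2-ctrl and 14.7, 12.4 and 16.3 CPM in LK2-maspin (log2 fold change 1.40 ± 0.12, adjusted p = 0.000255), and held without any single library. LTBR, the lymphotoxin beta receptor, was at 46.9, 46.6 and 44.7 CPM in LK2-ctrl and 36.3, 35.9 and 35 CPM in LK2-maspin (log2 fold change -0.37 ± 0.064, adjusted p = 0.025), and lost its call without LK2-ctrl replicate 1 or 2 or LK2-maspin replicate 1, 2 or 3 (adjusted p = 0.0632 to 0.223). LY6E, a membrane protein induced by interferon, was at 1.26, 1.31 and 1.07 CPM in LK2-ctrl and 5.9, 5.14 and 5.37 CPM in LK2-maspin (log2 fold change 2.17 ± 0.16, adjusted p = 6.26e-05), the 1 gene called among 39 interferon and antigen presentation genes (median log2 fold change 0.039). CD200, a surface protein that restrains myeloid cells, was at 0.63, 0.849 and 0.889 CPM in LK2-ctrl and 2.24, 3.19 and 2.64 CPM in LK2-maspin (log2 fold change 1.76 ± 0.23, adjusted p = 0.00378). SLA, an adaptor of antigen receptors, was at 0.63, 0.425 and 0.756 CPM in LK2-ctrl and 1.49, 2.33 and 2.02 CPM in LK2-maspin (log2 fold change 1.69 ± 0.28, adjusted p = 0.0178), and lost its call without LK2-ctrl replicate 2 or LK2-maspin replicate 2 or 3 (adjusted p = 0.0687 to 0.133). SLCO2A1, the prostaglandin transporter, rose (log2 fold change 1.34 ± 0.24, adjusted p = 0.0333) and lost its call without LK2-ctrl replicate 1 or 2 or LK2-maspin replicate 2 or 3 (adjusted p = 0.0729 to 0.286). PENK, the precursor of enkephalins, rose (log2 fold change 0.64 ± 0.11, adjusted p = 0.0237) and lost its call without LK2-ctrl replicate 1 or 2 or LK2-maspin replicate 2 or 3 (adjusted p = 0.0647 to 0.2). SPRED1, which restrains RAS signalling, fell (log2 fold change -0.32 ± 0.059, adjusted p = 0.0388), the 1 call among 27 MAPK feedback genes, and lost it without LK2-ctrl replicate 1 or 2 or LK2-maspin replicate 1, 2 or 3 (adjusted p = 0.0736 to 0.439). SEMA3C, a guidance ligand, rose (log2 fold change 1.15 ± 0.16, adjusted p = 0.00686), and lost its call without LK2-ctrl replicate 2 (adjusted p = 0.0625), and the adhesion protein NTM rose (log2 fold change 1.29 ± 0.23, adjusted p = 0.0256), and lost its call without LK2-ctrl replicate 1 or 2 or LK2-maspin replicate 2 or 3 (adjusted p = 0.0695 to 0.229).

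Genes of the matrix and of adhesion rose singly rather than as lists. PXDN, the peroxidase that crosslinks collagen IV, was at 15.1, 14 and 15.5 CPM in LK2-ctrl and 32.9, 41.4 and 48.2 CPM in LK2-maspin (log2 fold change 1.46 ± 0.12, adjusted p = 0.000202). CDH11, a type II cadherin of mesenchymal cells, was at 33, 26.8 and 26.4 CPM in LK2-ctrl and 75.4, 71.4 and 64 CPM in LK2-maspin (log2 fold change 1.29 ± 0.10, adjusted p = 6.53e-05). COL26A1, a collagen, was at 8.32, 8.33 and 9.6 CPM in LK2-ctrl and 17.6, 18.8 and 19.2 CPM in LK2-maspin (log2 fold change 1.08 ± 0.10, adjusted p = 0.000299). These 3 genes were called in all 6 fits without 1 library, as was the secreted CTHRC1 (log2 fold change 1.13 ± 0.15, adjusted p = 0.00382).

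IGFN1 (log2 fold change 1.20 ± 0.18, adjusted p = 0.0107), THBS1, an activator of latent TGF-beta (log2 fold change 1.27 ± 0.23, adjusted p = 0.0361), and the testican SPOCK1 (log2 fold change 0.56 ± 0.094, adjusted p = 0.0202) also rose, with calls lost without LK2-ctrl replicate 2 (adjusted p = 0.0983), without LK2-ctrl replicate 2 or LK2-maspin replicate 1 or 2 (adjusted p = 0.0967 to 0.213) and without LK2-ctrl replicate 1 or 2 or LK2-maspin replicate 2 or 3 (adjusted p = 0.0605 to 0.186) respectively. The collagen-binding integrin ITGA1 rose (log2 fold change 0.89 ± 0.12, adjusted p = 0.0053; lost without LK2-maspin replicate 2 (adjusted p = 0.0621)), as did the serine protease PRSS23 (log2 fold change 1.08 ± 0.17, adjusted p = 0.0121; lost without LK2-ctrl replicate 2 or LK2-maspin replicate 2 (adjusted p = 0.0947 to 0.0983)). The metalloprotease ADAMTS12 fell (log2 fold change -0.37 ± 0.07, adjusted p = 0.0401; lost without LK2-ctrl replicate 2 or LK2-maspin replicate 1, 2 or 3 (adjusted p = 0.119 to 0.225)). Of 57 matricellular genes 5 rose (8.77%), of 39 collagens 1 (2.56%), of 23 integrins 1 (4.35%) and of 20 cadherins 1 (5%). Over the tested genes of all lists, 4.82% were called. None of 12 laminin chains was called, LAMA4 (-0.37, adjusted p = 0.857) and LAMB1 (0.10, adjusted p = 0.888) being nearest. The medians of these lists lay between -0.051 and 0.13. Of the kinase genes that the study followed in RERF-LC-AI cells, PTK2B was at 2.6, 2.51 and 4.09 CPM in LK2-ctrl and 3.38, 3.95 and 3.76 CPM in LK2-maspin (log2 fold change 0.27 ± 0.20, adjusted p = 0.97) and SRC at 53.1, 52.9 and 47.3 CPM in LK2-ctrl and 47, 49.6 and 50.1 CPM in LK2-maspin (log2 fold change -0.065 ± 0.07, adjusted p = 1), and neither was called. SRGN (-0.47, adjusted p = 0.997), DDR2 (0.64, adjusted p = 0.42), FGFR1 (0.0049, adjusted p = 1) and PIK3CA (-0.045, adjusted p = 1) were not called either.

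The list of non-muscle myosin II, kinesin-26 and stathmin genes had 5 of 19 tested genes called higher (26.3%), against 0.533% of all genes tested and 4.82% of the tested genes of all 55 lists. It also holds the GTPase RHOB, and like the other lists it was chosen with results of these data known. MYH14, a non-muscle myosin II heavy chain, was at 2.88, 2.66 and 3.53 CPM in LK2-ctrl and 9.53, 8.49 and 9.4 CPM in LK2-maspin (log2 fold change 1.60 ± 0.14, adjusted p = 0.000267), and held without any single library. KIF26B (log2 fold change 1.20 ± 0.15, adjusted p = 0.00382; lost without LK2-ctrl replicate 2 (adjusted p = 0.0549)) and KIF26A (log2 fold change 0.92 ± 0.13, adjusted p = 0.00587; lost without LK2-ctrl replicate 2 (adjusted p = 0.0649)) are kinesin-26 proteins, of which KIF26B acts in noncanonical WNT signalling. STMN3 below and THBS1 above lie outside the naming rule and were chosen after their values were seen. RHOB, a small GTPase of endosomes, rose (log2 fold change 0.60 ± 0.09, adjusted p = 0.0107; lost without LK2-ctrl replicate 2 or LK2-maspin replicate 2 (adjusted p = 0.105 in each)), as did the stathmin STMN3 (log2 fold change 0.58 ± 0.10, adjusted p = 0.0265; lost without LK2-ctrl replicate 1 or 2 or LK2-maspin replicate 1, 2 or 3 (adjusted p = 0.0841 to 0.209)). CAVIN2, a coat protein of caveolae, fell, being at 681, 637 and 685 CPM in LK2-ctrl and 426, 359.7 and 373 CPM in LK2-maspin (log2 fold change -0.79 ± 0.071, adjusted p = 0.000267), as the 1 called of 9 caveolar genes. DNAH9, a dynein heavy chain of motile cilia, fell, being at 48.1, 57.3 and 54.6 CPM in LK2-ctrl and 31.9, 31 and 28.2 CPM in LK2-maspin (log2 fold change -0.81 ± 0.083, adjusted p = 0.000648), the 1 called of 13 axonemal dyneins. Neither call depended on a single library.

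**Figure D3:**
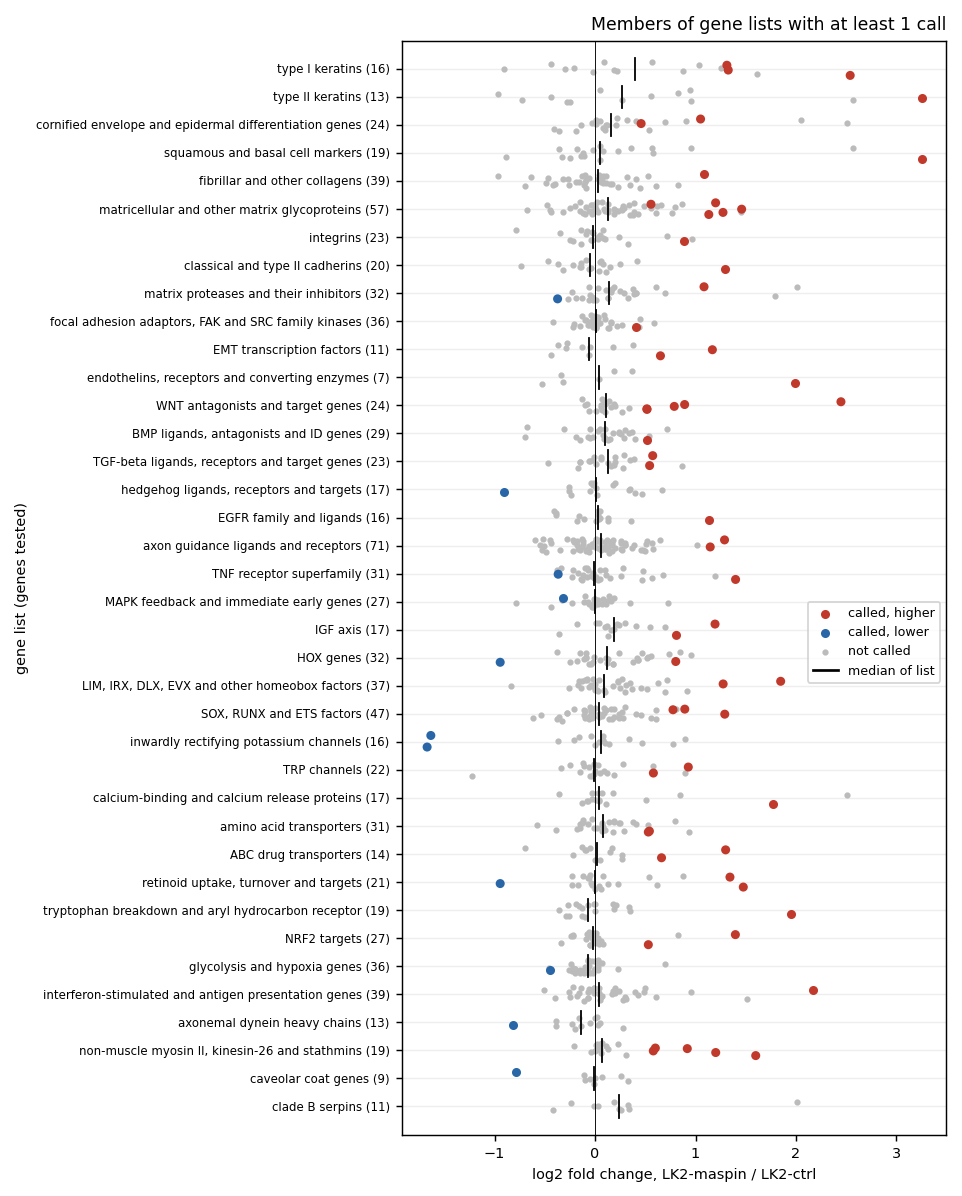
Log2 fold change of the tested members of gene lists with at least 1 call (1 row for each list, the number of genes tested in brackets), with called genes in red (higher) or blue (lower), other members in grey and the list median as a black line. SERPINB5 is left out of the clade B serpins, and most medians lie near 0 while single members lie far from it.

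Factors that set cell identity rose in small numbers. LHX1, a LIM homeobox factor of kidney and neuronal development, was at 8.63, 9.92 and 11.4 CPM in LK2-ctrl and 20.5, 26.2 and 25.9 CPM in LK2-maspin (log2 fold change 1.27 ± 0.13, adjusted p = 0.000568). RUNX3, a RUNX factor, was at 17.7, 19.5 and 17.5 CPM in LK2-ctrl and 29.3, 34 and 30.4 CPM in LK2-maspin (log2 fold change 0.78 ± 0.086, adjusted p = 0.00137). TWIST1, a factor of epithelial-mesenchymal transition (EMT), was at 50.2, 51.7 and 43.7 CPM in LK2-ctrl and 72.5, 80.4 and 75.9 CPM in LK2-maspin (log2 fold change 0.65 ± 0.077, adjusted p = 0.00226). The calls of these 3 genes held without any single library.

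IRX2, a homeobox factor, was at 1.28, 1.11 and 2.09 CPM in LK2-ctrl and 3.32, 5.75 and 7 CPM in LK2-maspin (log2 fold change 1.85 ± 0.29, adjusted p = 0.0138; lost without LK2-ctrl replicate 2 or LK2-maspin replicate 2 (adjusted p = 0.101 to 0.135)). ETS1, an ETS factor, was at 5.44, 7.37 and 9.02 CPM in LK2-ctrl and 14.6, 18.7 and 20.2 CPM in LK2-maspin (log2 fold change 1.29 ± 0.17, adjusted p = 0.0053; lost without LK2-ctrl replicate 2 (adjusted p = 0.0605)), and SOX9, a factor of progenitor cells, at 8.07, 6.54 and 6.51 CPM in LK2-ctrl and 12.4, 14.9 and 11.9 CPM in LK2-maspin (log2 fold change 0.89 ± 0.13, adjusted p = 0.00844; lost without LK2-ctrl replicate 2 or LK2-maspin replicate 2 (adjusted p = 0.0854 to 0.0923)). SNAI2, the second EMT factor called, was at 0.777, 1.18 and 0.934 CPM in LK2-ctrl and 2.13, 2.13 and 2.28 CPM in LK2-maspin (log2 fold change 1.17 ± 0.21, adjusted p = 0.0351), and its call was lost without LK2-ctrl replicate 1, 2 or 3 or LK2-maspin replicate 1, 2 or 3 (adjusted p = 0.0579 to 0.164). The other 9 EMT factors tested were not called and the list's median log2 fold change was -0.056. Of 47 SOX, RUNX and ETS factors 3 rose, and of 37 LIM, IRX, DLX, EVX and other homeobox factors 2 rose.

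HOX genes set position along the body, and 2 of 32 tested were called. HOXC9 rose, being at 7.5, 7.07 and 8.8 CPM in LK2-ctrl and 10.7, 14.6 and 15.5 CPM in LK2-maspin (log2 fold change 0.80 ± 0.15, adjusted p = 0.0373), and lost its call without LK2-ctrl replicate 1 or 2 or LK2-maspin replicate 2 or 3 (adjusted p = 0.109 to 0.298). Among the 8 HOXC genes tested, 7 had a log2 fold change above 0 (median 0.62), against 5 of 11 HOXA, 4 of 8 HOXB and 3 of 5 HOXD genes. HOXC10 (0.95, adjusted p = 0.0781) and HOXC8 (0.84, adjusted p = 0.0718) missed the threshold, while HOXC5 was at -0.11, adjusted p = 1.

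Of the ion channels, both called inward rectifiers fell. KCNJ5, a G-protein-gated potassium channel of heart and adrenal gland, was at 61, 73.5 and 71.3 CPM in LK2-ctrl and 23.8, 18.9 and 21.8 CPM in LK2-maspin (log2 fold change -1.67 ± 0.10, adjusted p = 1.33e-05). KCNJ1, the ROMK channel of the kidney, was at 3.97, 5.23 and 5.49 CPM in LK2-ctrl and 1.62, 1.6 and 1.5 CPM in LK2-maspin (log2 fold change -1.63 ± 0.17, adjusted p = 0.000949). Both calls held without any single library, and none of the other 14 inward rectifiers tested was called.

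These genes are neighbours on chromosome 11, 24.06 kb apart, and their upstream windows are shown because they fell together and differ in base composition. Each holds 250 bases before the gene's start (RefSeq, GRCh38.p14, chr11:128867297-128867546 on the minus strand and chr11:128891106-128891355 on the plus strand, 5′ to 3′), with TATAAA and the GC box motif GGGCGG on either strand in capitals.
KCNJ1: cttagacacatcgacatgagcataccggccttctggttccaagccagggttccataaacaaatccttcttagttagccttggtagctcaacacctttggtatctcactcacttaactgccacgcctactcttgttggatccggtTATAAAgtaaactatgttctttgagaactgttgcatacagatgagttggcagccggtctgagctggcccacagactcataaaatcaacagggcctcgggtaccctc
KCNJ5: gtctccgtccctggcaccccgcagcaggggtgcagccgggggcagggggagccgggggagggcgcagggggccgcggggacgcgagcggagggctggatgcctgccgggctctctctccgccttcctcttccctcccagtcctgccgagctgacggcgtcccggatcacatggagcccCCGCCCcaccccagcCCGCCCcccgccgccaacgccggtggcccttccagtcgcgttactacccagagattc
KCNJ1 held TATAAA once and 6 CG dinucleotides at 47.6% G and C, and KCNJ5 held GGGCGG on its reverse strand 2 times and 24 CG dinucleotides at 75.2% G and C. GGGCGG was found in 53.2% of the 18272 windows and in 59 of the 99 windows of called genes.

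TRPM3, a cation channel of the TRP family, rose (log2 fold change 0.93 ± 0.10, adjusted p = 0.00124). CALB1, a cytosolic calcium buffer, was at 7.5, 8.11 and 8.54 CPM in LK2-ctrl and 24.1, 30.3 and 28.3 CPM in LK2-maspin (log2 fold change 1.78 ± 0.11, adjusted p = 1.33e-05), and held without any single library. GRIK3, a kainate receptor subunit, fell (log2 fold change -0.84 ± 0.12, adjusted p = 0.00564), and lost its call without LK2-ctrl replicate 2 or LK2-maspin replicate 2 (adjusted p = 0.0549 to 0.0745).

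Some transporters of amino acids and drugs rose. SLC1A5, a glutamine transporter, was at 436, 454 and 447 CPM in LK2-ctrl and 612, 671 and 662 CPM in LK2-maspin (log2 fold change 0.54 ± 0.058, adjusted p = 0.000982). SLC7A11, the cystine-glutamate exchanger, was at 293, 288 and 244 CPM in LK2-ctrl and 388, 419 and 383 CPM in LK2-maspin (log2 fold change 0.53 ± 0.076, adjusted p = 0.00742), and lost its call without LK2-ctrl replicate 2 or LK2-maspin replicate 2 (adjusted p = 0.0549 to 0.106). These were the 2 called of 31 amino acid transporters, while 0 of 34 genes of the ATF4 amino acid response were called, although 26 of 34 lay above 0 (median 0.084; PSAT1 0.21, adjusted p = 0.483, PYCR1 0.18, adjusted p = 0.618). ABCB1, the multidrug efflux pump, was at 2.9, 3.9 and 2.16 CPM in LK2-ctrl and 6.91, 8.18 and 7.08 CPM in LK2-maspin (log2 fold change 1.30 ± 0.19, adjusted p = 0.00955), and lost its call without LK2-maspin replicate 2 (adjusted p = 0.0919). ABCA5 rose as well (log2 fold change 0.66 ± 0.12, adjusted p = 0.0265; lost without LK2-ctrl replicate 1 or 2 or LK2-maspin replicate 2 or 3 (adjusted p = 0.079 to 0.22)).

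TDO2, the first enzyme of tryptophan breakdown, was at 5.71, 5.08 and 4.2 CPM in LK2-ctrl and 21.5, 19 and 17.5 CPM in LK2-maspin (log2 fold change 1.95 ± 0.13, adjusted p = 2.92e-05), the 1 called of 19 genes of its list, of which 13 lay below 0 (median -0.069). CES1, a carboxylesterase, was at 3.95, 3.19 and 3.47 CPM in LK2-ctrl and 10, 9.48 and 8.39 CPM in LK2-maspin (log2 fold change 1.40 ± 0.13, adjusted p = 0.000449), and with SLC7A11 it was 1 of 2 called among 27 NRF2 targets (median -0.019). TDO2 and CES1 were called in all 6 fits without 1 library. In the retinoid list STRA6, the receptor for retinol uptake, was at 3.13, 1.99 and 2.42 CPM in LK2-ctrl and 8.29, 7.63 and 5.02 CPM in LK2-maspin (log2 fold change 1.48 ± 0.22, adjusted p = 0.00869; lost without LK2-ctrl replicate 2 or LK2-maspin replicate 2 (adjusted p = 0.0777 to 0.0834)), and CYP26B1, which degrades retinoic acid, at 1.66, 1.59 and 1.69 CPM in LK2-ctrl and 5.06, 3.65 and 3.78 CPM in LK2-maspin (log2 fold change 1.34 ± 0.18, adjusted p = 0.00459; lost without LK2-ctrl replicate 2 (adjusted p = 0.0549)).

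Glycolysis and hypoxia genes differed more between libraries of one group than between the groups. Their summed level was 14712 CPM, 15913 CPM and 16679 CPM in LK2-ctrl and 13632 CPM, 15299 CPM and 15361 CPM in LK2-maspin. Replicate 3 was above replicate 1 for 32 of 36 genes in LK2-ctrl (median log2 difference 0.30, against 0.012 over 17985 genes with a mean of at least 1 CPM) and for 30 of 36 in LK2-maspin (0.23, against 0.0045). The 1 call of the list was ADM, adrenomedullin, at 39.8, 41.5 and 43 CPM in LK2-ctrl and 30.2, 32.4 and 28.5 CPM in LK2-maspin (log2 fold change -0.45 ± 0.074, adjusted p = 0.0178), and it was lost without LK2-ctrl replicate 2 or LK2-maspin replicate 1, 2 or 3 (adjusted p = 0.0552 to 0.139). GAPDH was at -0.20, adjusted p = 0.418, and 27 of 36 genes lay below 0 (median -0.072). DKK1, NPR3, TGFA and NTM were also at their highest in replicate 3 of either group. So were other called genes, among them EDN3, KRT31, KRT23, ETS1, SEMA3C, APCDD1, PENK, PRSS23 and IRX2, while CDH11 and TDO2, for example, were not. The part of this difference between libraries in the calls of these genes was not tested.

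**Figure D4:**
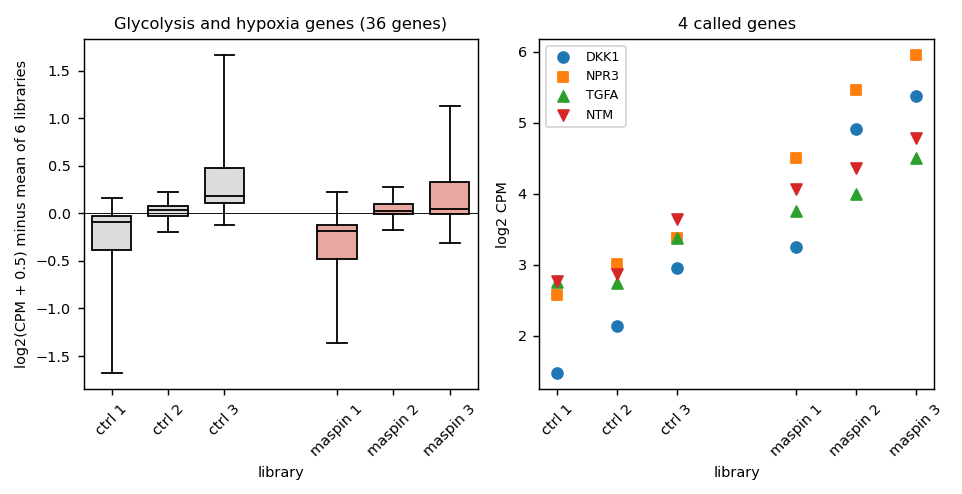
Left, log2(CPM + 0.5) of 36 glycolysis and hypoxia genes minus each gene's mean over the 6 libraries, in each library (box, quartiles with the median; whiskers, lowest and highest gene; LK2-ctrl grey, LK2-maspin red). Right, log2 CPM of DKK1, NPR3, TGFA and NTM in each library, where replicate 3 is the highest of its group for all 4 genes.

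Lists of growth, death and defence held few or no calls. None of 46 cell cycle and replication genes (median log2 fold change -0.041; E2F2 -0.19, adjusted p = 0.815, CDKN1B -0.14, adjusted p = 0.783), 35 apoptosis genes (median 0.032; BOK 0.37, adjusted p = 0.588), 40 autophagy genes (median 0.019; ATG4C 0.27, adjusted p = 0.517, MAP1LC3B 0.21, adjusted p = 0.612) or 25 NF-kB and inflammatory genes (median -0.021; REL 0.12, adjusted p = 0.758, ICAM1 0.53, adjusted p = 0.786) was called. The same held for 24 cholesterol synthesis genes (median 0.008; NSDHL 0.17, adjusted p = 0.905, SC5D 0.10, adjusted p = 0.979), 30 genes of the unfolded protein and heat shock responses (median 0.034; HERPUD1 0.29, adjusted p = 0.205, SEL1L 0.15, adjusted p = 0.7, HSP90AB1 -0.022, adjusted p = 1) and 18 histone deacetylases and sirtuins (median -0.0099; HDAC4 0.04, adjusted p = 1, SIRT4 0.14, adjusted p = 1, HDAC1 -0.038, adjusted p = 1). Ribosomal protein genes lay below 0 in 72 of 79 cases with 0 called (median -0.06; RPL26 -0.18, adjusted p = 0.403, RPS2 -0.13, adjusted p = 0.703), and their summed level of 52685 to 55733 CPM in LK2-ctrl overlapped with that of 50100 to 53692 CPM in LK2-maspin.

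The largest falls were those of LOC105370680, SPRR4, DPEP3 and S100A7A. SPRR4 is a small proline-rich protein of the cornified envelope, DPEP3 a dipeptidase of testis and S100A7A a psoriasin paralog. LOC105370680, a long non-coding RNA, was at 10.8, 10.6 and 13.4 CPM in LK2-ctrl and 2.39, 1.57 and 2.1 CPM in LK2-maspin (log2 fold change -2.51 ± 0.17, adjusted p = 2.92e-05). SPRR4 was at 4.12, 4.1 and 6.58 CPM in LK2-ctrl and 1.05, 0.862 and 1.16 CPM in LK2-maspin (log2 fold change -2.26 ± 0.23, adjusted p = 0.000648), DPEP3 at 6.22, 6.57 and 9.42 CPM in LK2-ctrl and 1.72, 1.42 and 1.72 CPM in LK2-maspin (log2 fold change -2.18 ± 0.19, adjusted p = 0.000255) and S100A7A at 7.27, 7.94 and 10.3 CPM in LK2-ctrl and 1.92, 1.98 and 2.68 CPM in LK2-maspin (log2 fold change -1.95 ± 0.18, adjusted p = 0.000341). The summed level of the 4 genes was 28.4, 29.2 and 39.7 CPM in LK2-ctrl and 7.07, 5.82 and 7.66 CPM in LK2-maspin. SPRR4 made up 14.0 to 16.6% and DPEP3 21.9 to 24.3% of this sum in every library, S100A7A 25.6 to 35.0%, and LOC105370680 27.0 to 38.0%. The log2 fold changes of the same 4 genes in RERF-LC-AI cells, where the vectors were the same, were -2.33, -1.94, -1.93 and -1.95, and the differences between the lines did not pass the test (adjusted p = 0.71 to 1). The vector differed between the groups together with maspin, and their effects on these genes cannot be told apart.

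Other falls that met the naming rule were LOC105378174 (log2 fold change -1.16 ± 0.22, adjusted p = 0.0421; lost without LK2-ctrl replicate 1, 2 or 3 or LK2-maspin replicate 1, 2 or 3 (adjusted p = 0.0695 to 0.191)), the glycosyltransferase gene B3GALT2 (log2 fold change -0.85 ± 0.16, adjusted p = 0.0415; lost without LK2-ctrl replicate 1, 2 or 3 or LK2-maspin replicate 1, 2 or 3 (adjusted p = 0.0745 to 0.244)) and CNTNAP3B, an adhesion gene with near-identical copies whose reads may be shared (log2 fold change -0.93 ± 0.14, adjusted p = 0.0101; lost without LK2-ctrl replicate 2 or LK2-maspin replicate 2 or 3 (adjusted p = 0.0509 to 0.0983)). LOC112268317 was at 376, 441 and 429 CPM in LK2-ctrl and 288, 294 and 292 CPM in LK2-maspin (log2 fold change -0.51 ± 0.067, adjusted p = 0.00405; lost without LK2-ctrl replicate 2 or LK2-maspin replicate 2 (adjusted p = 0.0549 to 0.0621)).

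Called genes often lay beside other called genes. Of 137 called genes with a chromosomal position, 36 (26.3%) had another called gene within 500 kb, as did 1502 of 25210 tested genes (5.96%). Of 29 such pairs, 26 moved in the same direction and 3, all with ETS1, in opposite directions. Genes named in this and the next paragraph for their position were chosen after their values were seen. Some pairs share a start region or overlap. LHX1 and its divergent transcript LHX1-DT lie 124 bases apart and rose by 1.27 and 1.13 (log2). CAVIN2 and CAVIN2-AS1 (-0.79 and -0.56), SLC7A11 and SLC7A11-AS1 (0.53 and 1.32), and KCNJ1 and LOC107984409 (-1.63 and -1.26) overlap. As the sources used here do not say whether the counting used strand, the reads of such partners cannot be told apart. CEMIP, a hyaluronan-binding protein, and ABHD17C, a depalmitoylating enzyme, lie 23.749 kb apart and fell (log2 fold change -0.60 ± 0.075, adjusted p = 0.00346, and log2 fold change -0.58 ± 0.065, adjusted p = 0.00138). LHX1-DT lost its call without LK2-ctrl replicate 2 or LK2-maspin replicate 2 (adjusted p = 0.0897 to 0.0996), CAVIN2-AS1 without LK2-maspin replicate 2 or 3 (adjusted p = 0.0601 to 0.122) and LOC107984409 without LK2-ctrl replicate 2 or LK2-maspin replicate 2 or 3 (adjusted p = 0.0708 to 0.106).

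On chromosome 12, 5 genes of 1 stretch rose. They were RASSF3, a RAS-association domain protein (log2 fold change 0.60 ± 0.081, adjusted p = 0.00564), TBC1D30, a RAB GTPase activator (log2 fold change 0.65 ± 0.083, adjusted p = 0.00346), WIF1 (log2 fold change 0.89 ± 0.12, adjusted p = 0.00382), LEMD3 (log2 fold change 0.54 ± 0.072, adjusted p = 0.00459) and MSRB3, a methionine sulfoxide reductase (log2 fold change 0.39 ± 0.067, adjusted p = 0.0225). RASSF3 was at 58.8, 64.5 and 71.1 CPM in LK2-ctrl and 90, 101 and 103 CPM in LK2-maspin, and MSRB3 at 79.8, 86.3 and 83.1 CPM in LK2-ctrl and 101, 111 and 115 CPM in LK2-maspin. TBK1 before and HMGA2 after the stretch were not called (0.068, adjusted p = 1; 0.28, adjusted p = 0.169). On chromosome 11, ETS1 rose and KCNJ1, LOC107984409 and KCNJ5 fell, while C11orf45, which lies within the span of KCNJ5, and ARHGAP32 beyond it were not called (-0.35, adjusted p = 0.982; 0.14, adjusted p = 0.762). RASSF3 lost its call without LK2-ctrl replicate 2 or LK2-maspin replicate 2 (adjusted p = 0.0675 to 0.0677), WIF1 without LK2-ctrl replicate 2 (adjusted p = 0.0506), LEMD3 without LK2-maspin replicate 2 (adjusted p = 0.065), MSRB3 without LK2-ctrl replicate 1 or 2 or LK2-maspin replicate 2 or 3 (adjusted p = 0.0918 to 0.213) and ETS1 without LK2-ctrl replicate 2 (adjusted p = 0.0605), whereas TBC1D30, KCNJ1 and KCNJ5 kept it in all 6 fits.

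**Figure D5:**
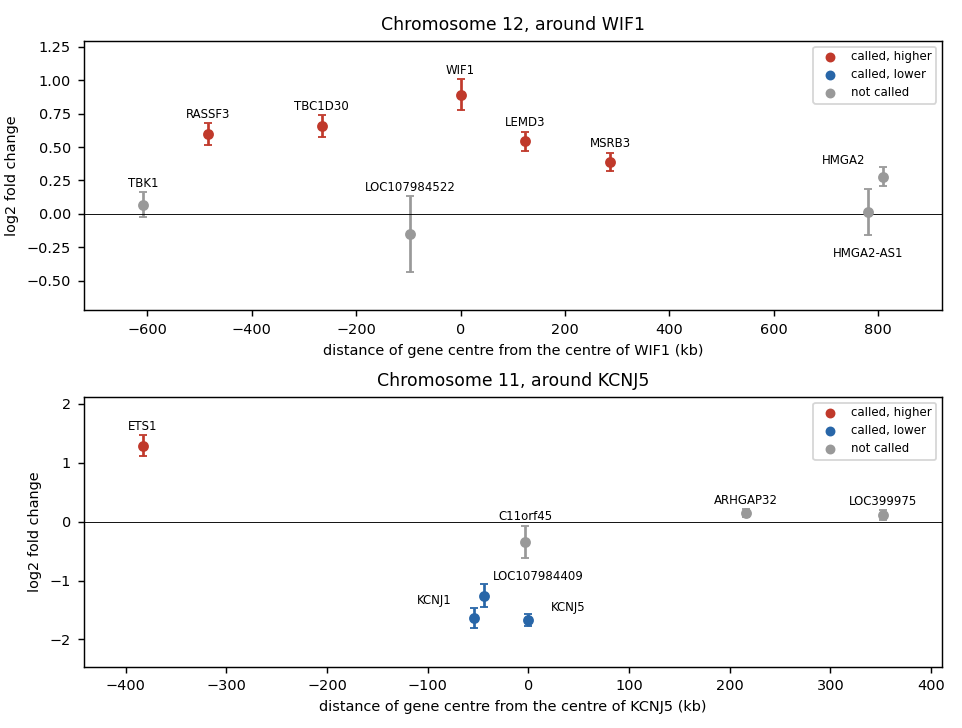
Log2 fold change of LK2-maspin over LK2-ctrl (points, with bars of 1 standard error) for the genes reported here, with a mean of at least 1 CPM, on chromosome 12 around WIF1 (top) and on chromosome 11 around KCNJ5 (bottom), against the distance between gene centres in kb. RASSF3, TBC1D30, WIF1, LEMD3 and MSRB3 were called higher, and KCNJ1, LOC107984409 and KCNJ5 were called lower with ETS1 called higher.

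Set against RERF-LC-AI cells, 494 of 28123 genes (1.76%) differed in their response to maspin between the lines in 1 fit of all 12 libraries. Among the 140 genes called in LK-2 cells, 62 did, but the LK-2 contrast is part of both tests and the share is no independent result. EDN3, EDAR, KRT5, KRT31 and KRT23 had too few reads in RERF-LC-AI cells to be tested within that line. CAVIN2 fell in RERF-LC-AI cells as well (-0.71, difference -0.078 ± 0.088, adjusted p = 0.809), and ADM did (-0.53, difference 0.085 ± 0.11, adjusted p = 0.844). The rise of SERPINB5 differed too (-6.52 ± 0.19, adjusted p = 3.22e-14), with 8 to 14 reads of the gene in the LC-AI-ctrl libraries and 26615 to 30665 in the LC-AI-maspin libraries.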

How the data were processed

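Poly(A) RNA was sequenced from 3 LK2-ctrl and 3 LK2-maspin libraries (strand-specific, NovaSeq). Per the submitters' processing notes, the authors used Trimmomatic 0.39, BWA 0.7.17, SAMtools 1.12, edgeR 3.16.5 and GRCh38.p13. They deposited whole-number counts of mapped reads per gene, and signal columns of these counts scaled by library total or TMM, which were not used. Which tool counted the reads was not given.

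Of the lines, 646 had no symbol (0.410 to 0.416% of counts) and were left out. Groups came from the labels. The 26270 genes that passed edgeR's default filter (minimum count 10, total 15) were tested in edgeR (4.0.16, with R 4.3.3, limma 3.58.1 and statmod 1.5.0) by its quasi-likelihood test, with TMM factors, Benjamini-Hochberg adjusted, called under 0.05, with a biological coefficient of variation of 11.7%. The standard error was computed as the log2 fold change divided by the square root of F. The study names a likelihood ratio test, which was an alternative, as were DESeq2 1.42.0, other factors and filters, the replicate number as a block and leaving out each library. Libraries of a group differed by more than counting noise (chi-square per degree of freedom 5.43 to 26.5). The scripts were tested on simulated data.

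The 55 gene lists (1495 genes, 1369 tested) and the genes described were chosen with earlier results of these data known, and 66 of the 140 called genes are in a list. A list is described by its counts and median only. Named genes were SERPINB5, its clade B neighbours, the 20 largest rises and 15 largest falls with a mean of at least 1 CPM and groups that do not overlap, 15 genes called without any 1 library, up to 4 members of each list (or 2 where none passed), the 5 called genes with the highest mean CPM and genes of the study. Some genes that meet this rule are not reported here. Positions and promoter windows are from RefSeq on GRCh38.p14, a later patch of the authors' build with the same chromosome coordinates. Tables and figures were made in Python (3.11.15) using matplotlib (3.10.9) and pandas (2.3.3).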

Additional observations from a re-analysis of the deposited data

Results flagged for a closer look

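The response to maspin differed between LK-2 and RERF-LC-AI cells for 35 of the 81 named genes called in LK-2 cells, by an interaction term in 1 edgeR quasi-likelihood fit of all 12 libraries (adjusted p from 3.22e-14 to 0.0455). Each value is the log2 effect in LK-2 cells minus that in RERF-LC-AI cells. These genes were named for their LK-2 effect, which is part of the difference. Some had a mean under 1 CPM in both LC-AI-ctrl and LC-AI-maspin. They include TDO2 (0.229 and 0.177 CPM), SHH (0.511 and 0.833), DNAH9 (0.516 and 0.663), CDH11 (0.615 and 0.475) and NPR3 (0.621 and 0.562). KRT31 had too few reads to be tested within that line. For such genes the difference rests on few RERF-LC-AI reads, unlike for IGFBP3 (1296 and 495 CPM). Groups of 3 libraries were not examined for single outlying samples.

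The rise of SERPINB5 was smaller in LK-2 cells (-6.52). Among genes that fell in LK-2 cells, the difference was -2.03 for KCNJ5, -1.70 for LOC105378174, -1.59 for SHH, -1.20 for DNAH9 and -1.07 for CNTNAP3B.

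Among secreted proteins and receptors that rose in LK-2 cells, it was 2.58 for IGFBP3, 2.58 for NPR3, 2.41 for DKK1, 2.06 for LY6E, 1.59 for CD200, 1.22 for SEMA3C, 1.03 for TGFA, 0.87 for TGFB2 and 0.80 for BMP4. Among matrix, adhesion and structural genes it was 2.65 for KRT31, 2.07 for IGFN1, 2.04 for PRSS23, 1.71 for COL26A1, 1.62 for CDH11, 1.20 for PXDN, 1.02 for MYH14, 0.86 for ITGA1 and 0.80 for SFN. Among transcription factors and nuclear proteins it was 1.61 for ETS1, 1.60 for IRX2, 1.42 for SOX9, 0.90 for TWIST1 and 0.66 for LEMD3. Among enzymes, transporters and RNA-related genes it was 2.33 for TDO2, 1.94 for ABCB1, 1.35 for CYP26B1, 1.07 for SLC7A11-AS1, 0.77 for IGF2BP1 and 0.50 for SLC1A5.

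Outside the naming rule, among genes given above for their values or position, the difference was -0.71 for ACSS3, -0.69 for ADRB1, 0.67 for RASSF3, 0.67 for MSRB3, 1.11 for TBC1D30, 1.53 for STMN3 and 1.98 for THBS1. Among genes that were not called in LK-2 cells it was 0.58 for LAMB1, 0.46 for PSAT1, 0.60 for BOK and 0.66 for THY1.

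Of the 140 genes called in LK-2 cells, some were called in RERF-LC-AI cells with the same sign. They include SERPINB5, MYH14, SLC7A11, RHOB, KIF26A and STRA6, which rose in both lines. They also include CAVIN2, CEMIP, ABHD17C, ADM, LOC105370680, SPRR4, DPEP3 and S100A7A, which fell in both. With the opposite sign, 16 of the 140 were called. The difference was called for all 16, but they were chosen by calls from the same libraries, so this is no independent result. Of the 16, 13 are described here. TGFB2, IGFBP3, ETS1, SOX9, SFN, COL26A1, PRSS23, ABCB1, IGFN1, THBS1, STMN3, MSRB3 and TBC1D30 rose in LK-2 cells and fell in RERF-LC-AI cells (log2 fold changes in RERF-LC-AI cells of -0.30, -1.39, -0.31, -0.53, -0.34, -0.63, -0.96, -0.64, -0.87, -0.71, -0.95, -0.28 and -0.45).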

How the results depend on the processing

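Of 26270 genes tested, 140 were called by the quasi-likelihood test. With edgeR's likelihood ratio test the count was 314 (220 higher, 94 lower), with DESeq2 272 (191 and 81), and with all 12 libraries in 1 fit 251 (184 and 67). RLE factors (142), upper-quartile factors (137), library size only (136), a minimum of 10 counts in every library (143) and no filter (209) left the total within 1.5 times, although the lower genes rose to 65 without the filter. Leaving out 1 library gave 50 to 199 genes in all, 37 to 143 higher and 11 to 56 lower, so that LK2-ctrl replicate 2 (90 of the 140 lost), LK2-maspin replicate 2 (88 lost) and LK2-maspin replicate 3 (82 called, 58 lost) each decided many calls, and the cause was not tested. No named call reversed, and of the 80 named and called genes other than SERPINB5, 76 to 80 kept their call under the tests, factors and filters. The log2 fold change of SERPINB5 stayed at 4.63 to 4.69 in all 15 alternatives.

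With the replicate number as a block, 1190 genes were called (693 higher, 497 lower), among them all 140. Of the named genes that were not called, 21 were called with the block, 5 with the likelihood ratio test and 3 with DESeq2. FZD8, RSPO4 and LUM were called in all 3 of these fits, THY1 and SERPINB2 with the block and the likelihood ratio test, and GAPDH, INSM1, PSAT1 and PYCR1 among others with the block alone. The numbers were not taken as pairs. The criterion asked for all 3 correlations of equally numbered libraries to be over 0.1 over all genes tested. Over these genes, their deviations from the group means correlated at 0.154, 0.0144 and 0.164. Each library correlated best with its own number there, as a hint from the data. Over genes above a mean log2 CPM of 3, which the criterion did not use, the values were 0.744, 0.113 and 0.75, all over 0.1. LK2-ctrl replicate 2 was closer to LK2-maspin replicate 1 over those genes (0.18), and the labels give no pairing. Statements that a gene was not called hold for the fit without the block.

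The difference between the lines gave 494 genes, 884 by the likelihood ratio test, 2273 with the replicate block and 306 to 754 without 1 LK-2 library (316 when LK2-ctrl replicate 2 was left out, 754 for LK2-ctrl replicate 3 and 306 for LK2-maspin replicate 2).

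Signs of genes that were not called turned without 1 library for SERPINB13 (-0.63 to 0.29), SERPINB11 (-0.24 to 1.78), SERPINB10 (-0.029 to 0.13), PIK3CA (-0.12 to 0.015), HDAC1 (-0.073 to 0.00071), HSP90AB1 (-0.097 to 0.047), EGFR (-0.037 to 0.22) and FGFR1 (-0.036 to 0.066). FGFR1 also turned with upper-quartile factors (-0.00083) and with at least 10 counts in every library (-0.0038). No gene with a mean under 1 CPM was called, and the part of depth in this was not tested.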

Other observations

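Some genes outside the naming rule were called in LK-2 cells and are given as values, chosen after they were seen. The sodium channel subunit SCN3B (log2 fold change 1.20 ± 0.21, adjusted p = 0.0265) and the adrenergic receptor ADRA2C (log2 fold change 0.45 ± 0.07, adjusted p = 0.0124) were higher in LK2-maspin, and the adrenergic receptor ADRB1 (log2 fold change -0.53 ± 0.092, adjusted p = 0.0256) and the epithelial sodium channel subunit SCNN1A (log2 fold change -0.51 ± 0.085, adjusted p = 0.0178) were lower. Their calls were lost for SCN3B without LK2-ctrl replicate 2 or LK2-maspin replicate 1 or 2 (adjusted p = 0.0828 to 0.148), for ADRA2C without LK2-ctrl replicate 2 or LK2-maspin replicate 2 or 3 (adjusted p = 0.067 to 0.123), for ADRB1 without LK2-ctrl replicate 1 or 2 or LK2-maspin replicate 1 or 2 (adjusted p = 0.0864 to 0.191) and for SCNN1A without LK2-ctrl replicate 2 or LK2-maspin replicate 1, 2 or 3 (adjusted p = 0.0553 to 0.127). GZMB, the granzyme of cytotoxic lymphocytes, was at 8.53, 8.83 and 10.6 CPM in LK2-ctrl and 14, 17.8 and 17.9 CPM in LK2-maspin (log2 fold change 0.83 ± 0.13, adjusted p = 0.0121), while the lymphocyte markers CD3D and CD3E were at or near 0, and it lost its call without LK2-ctrl replicate 2 or LK2-maspin replicate 2 or 3 (adjusted p = 0.0537 to 0.118). ACSS3, a mitochondrial propionate-activating enzyme, fell (log2 fold change -0.80 ± 0.11, adjusted p = 0.00587), and lost its call without LK2-ctrl replicate 2 or LK2-maspin replicate 2 (adjusted p = 0.0549 to 0.0732). The forkhead factor FOXQ1 (log2 fold change -0.38 ± 0.055, adjusted p = 0.00841; lost without LK2-ctrl replicate 2 or LK2-maspin replicate 2 (adjusted p = 0.0613 to 0.13)) and the receptor phosphatase PTPRD (log2 fold change -0.45 ± 0.061, adjusted p = 0.00564; lost without LK2-ctrl replicate 2 or LK2-maspin replicate 2 (adjusted p = 0.0705 to 0.0983)) fell as well.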
